A study of Mus musculus with 78 samples.

Results

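The genes for the lung's collagen and elastic scaffold were followed in the lungs of mice that slept or were kept awake, and 55 of the 18820 genes that the array annotation names with a single symbol belonged to them. They were every gene whose symbol is Col, a number, a and a number, together with named elastic fibre proteins, lysyl oxidases, collagen hydroxylases and the chaperone Serpinh1. There were 42 collagens, 4 elastic fibre proteins (Eln, Fbn2, Fbln5 and Emilin1), 3 lysyl oxidases (Lox, Loxl1 and Loxl2) and 6 folding factors (P4ha2, P4ha3, Plod1, Plod2, Plod3 and Serpinh1). The rule uses gene symbols and no measured value, but it was set with earlier results of these data known. Fbn1 and Loxl3, which were also sought, had no probe set with a single symbol, and 5 genes had more than 1 probe set, of which the brightest was taken.

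Collagen chains are hydroxylated on proline and lysine inside the endoplasmic reticulum, fold there into triple helices with the help of Serpinh1 (Hsp47), and are secreted and crosslinked outside the cell by lysyl oxidases. Elastin is laid down on fibrillin microfibrils with the help of fibulins and is crosslinked by the same family of enzymes. In lung, fibrillar collagens give the alveolar wall and airways their strength, collagen IV forms the basement membrane between air and blood, and elastin gives the tissue its recoil.

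Lung RNA of 78 young adult male C57BL/6J mice was measured, 1 array for each mouse. Baseline mice were killed at lights on (9 mice). The others either slept spontaneously or were sleep-deprived by gentle handling from lights on, and were killed after 3 h (9 sleeping and 9 sleep-deprived), 6 h (7 and 9), 9 h (9 and 9) or 12 h (9 and 8). All carried no engineered allele according to the labels and had been fed only in the dark phase before the experiment. Time awake and handling cannot be told apart in this design. Values are log2 intensities, on which a difference of 1 is a doubling. They can be compared for 1 gene between mice, but not between genes.

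The 6 lung markers (Sftpc, Sftpb, Sftpa1, Scgb1a1, Ager and Cldn18) had mean intensities from 12.04 to 13.25. For 15 arrays the array number fell on the position of the neighbouring condition when the conditions were laid along the numbers. By the profile of 200 probe sets all 15 lay closest to that other condition and 0 to their label, whereas of the remaining 62 arrays 59 lay closest to their own group. Array 81, labelled 12 h of sleep deprivation, lies outside the number order and was nearest to 6 h of sleep. Conditions are used as labelled, and results that change without these 16 arrays are given both ways. Transcripts of cartilage, epidermis and liver varied between mice, and 3 collagens that were high in such mice are described after the state comparison.

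The members ranged in mean intensity from 4.57 (Col6a4) to 10.34 (Fbln5), with a median of 7.25 against 7.50 for all genes. Of the 55, 37 had a mean of at least 6 and 18 lay below it. In bulk lung, fewer cells of a type and less RNA per cell cannot be told apart.

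Over all hours, sleep-deprived mice had higher levels of collagen-modifying enzymes and elastin. At an adjusted p under 0.01 from limma (35 sleep-deprived against 34 sleeping mice, adjusted over all 35556 probe sets), 9 members were higher and 2 were lower. This was read against 8.03% of all genes called in either direction, 3.68% higher and 4.35% lower. The 9 were P4ha2, Plod1, Col20a1, Eln, P4ha3, Col4a1, Serpinh1, Plod3 and Col4a2, and the 2 were Col4a6 and Col14a1. The estimate was above 0 for 41 of the 55 members, compared with 49.8% of all genes, and its median was 0.04 compared with 0.00. With the 16 arrays left out, 10 members were higher and 3 lower (6.30% and 5.80% of all genes, 12.1% together).

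**Figure D1:**
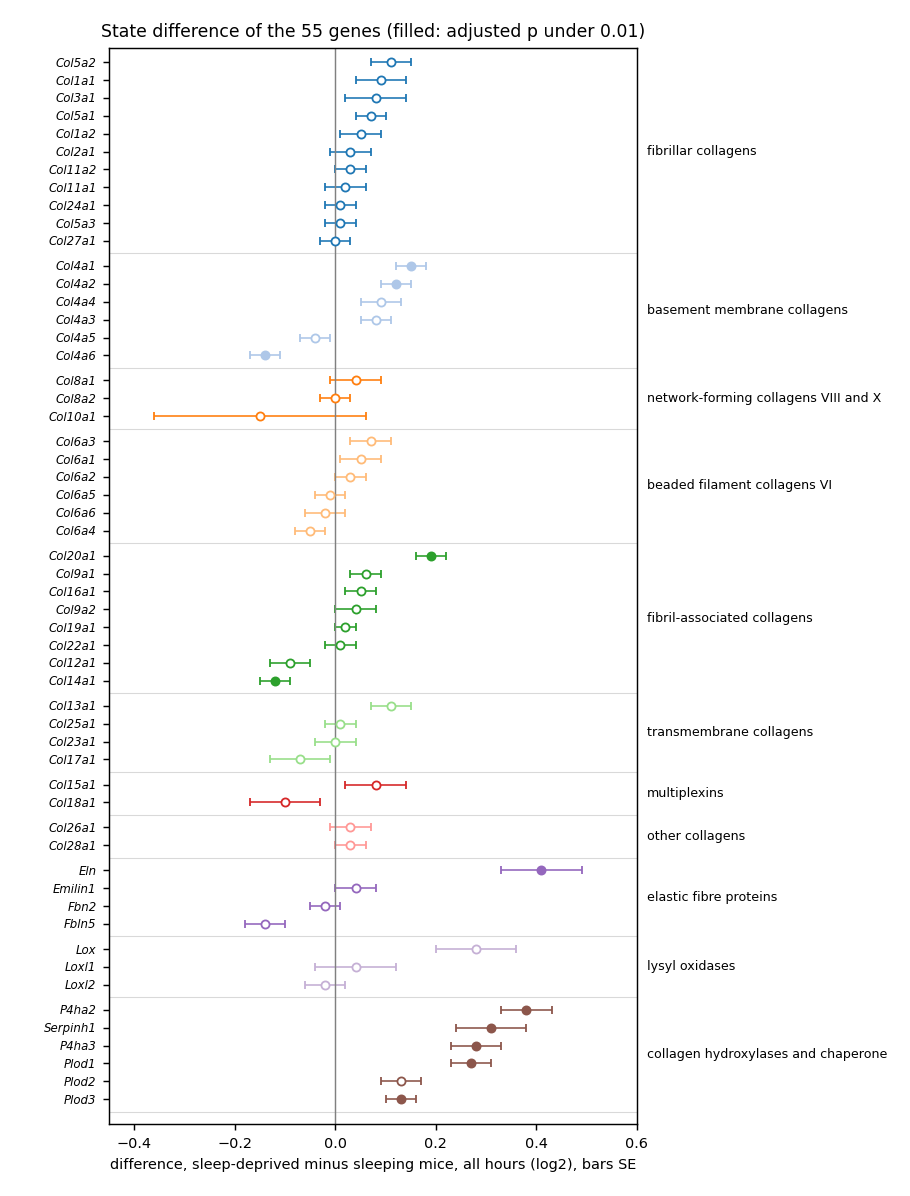
Difference between sleep-deprived and sleeping mice over all hours for each of the 55 genes, in log2 units on the horizontal axis, grouped by class, with bars for the SE of the limma estimate. Filled points passed an adjusted p of 0.01. In the class of hydroxylases and chaperone 5 of 6 points are filled and all lie to the right of 0, and no fibrillar collagen is filled.

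The folding factors held the largest share of calls among the classes, with 5 of 6 higher in sleep-deprived mice and 0 lower (3.68% and 4.35% of all genes). The promoters of the 3 that differed most between states at 3 h are shown, since these genes carry the comparison at that hour. The windows are the 250 bases before the start of the gene, 5′ to 3′ on the gene's strand, from RefSeq on GRCm38.p6. Capitals mark ACGTG or its reverse complement, a form of the core bound by hypoxia-inducible factors. It was held by 16.6% of 32851 such windows. The other form of that core, GCGTG, was not searched and is not marked.
P4ha2 (chr11:54100674-54100923, plus strand): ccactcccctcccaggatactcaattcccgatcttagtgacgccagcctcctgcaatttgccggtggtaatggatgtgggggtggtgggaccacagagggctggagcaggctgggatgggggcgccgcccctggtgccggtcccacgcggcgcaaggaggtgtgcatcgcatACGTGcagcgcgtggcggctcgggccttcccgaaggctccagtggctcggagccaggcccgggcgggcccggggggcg
Serpinh1 (chr7:99353240-99353489, minus strand): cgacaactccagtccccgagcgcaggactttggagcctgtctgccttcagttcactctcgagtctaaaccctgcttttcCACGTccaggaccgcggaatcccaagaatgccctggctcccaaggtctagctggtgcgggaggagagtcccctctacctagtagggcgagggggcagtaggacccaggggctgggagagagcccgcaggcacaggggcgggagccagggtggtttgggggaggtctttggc
Plod1 (chr4:147936777-147937026, minus strand): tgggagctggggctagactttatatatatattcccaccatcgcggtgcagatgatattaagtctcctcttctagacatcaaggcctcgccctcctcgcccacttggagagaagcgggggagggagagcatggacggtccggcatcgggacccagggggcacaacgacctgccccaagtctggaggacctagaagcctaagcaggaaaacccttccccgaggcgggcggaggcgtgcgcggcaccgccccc

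P4ha2 held ACGTG 78 bases and Serpinh1 its reverse complement 171 bases before the start, and the Plod1 window held neither. Over the 45 windows of the 41 members listed, 8 held ACGTG on either strand. Other motifs were also searched on both strands. The heat shock element GAANNTTC was in 1 member window (6.69% of all windows), the CCAAT box CCAAT in 14 (33.8%) and the endoplasmic reticulum stress element, whose CCAAT part overlaps the CCAAT box, in 0 (0.113%). None of these was in the 3 windows shown. The GC content was 70% in the P4ha2 window, 63.6% in the Serpinh1 window and 61.6% in the Plod1 window, against a median of 52.4% over all windows.

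P4ha2, a catalytic subunit of prolyl 4-hydroxylase, had the smallest p of all members between states. At 3 h it ranged from 8.57 to 9.08 (median 8.92) in sleep-deprived mice and from 8.13 to 8.67 (median 8.22) in sleeping mice, against 8.24 to 8.59 (median 8.35) at baseline. The highest sleeping mouse and the lowest sleep-deprived mouse at 3 h were both among the 16 arrays, and without them the groups were apart. The difference was 0.63 at 3 h (SE 0.09, adjusted p = 4.31e-07 from limma), 0.28 at 6 h (adjusted p = 0.145), 0.44 at 9 h (adjusted p = 0.00173) and 0.16 at 12 h (adjusted p = 0.76). Over all hours it was 0.38 (SE 0.05, adjusted p = 1.89e-07 from limma). Relative to baseline, P4ha2 was 0.50 higher after 3 h of sleep deprivation (adjusted p = 0.000153) and differed by −0.13 after 3 h of sleep (adjusted p = 0.616).

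P4ha3, another catalytic subunit of that enzyme, lay near the low end of the intensity scale. At 3 h it ranged from 5.99 to 6.51 (median 6.17) in sleep-deprived and from 5.52 to 6.10 (median 5.79) in sleeping mice. The groups overlapped between 5.99 and 6.10. The difference was 0.43 at 3 h (SE 0.10, adjusted p = 0.00173 from limma), 0.09 at 9 h (adjusted p = 0.592) and 0.28 over all hours (SE 0.05, adjusted p = 0.000172). It was above baseline after 3, 9 and 12 h of sleep deprivation, by 0.48, 0.35 and 0.44.

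The lysyl hydroxylases Plod1, Plod2 and Plod3 prepare lysines for crosslinks and sugar attachment. At 3 h Plod1 ranged from 9.99 to 10.47 (median 10.16) in sleep-deprived mice and from 9.52 upward (median 9.66) in sleeping mice. The highest sleeping mouse just reached the lowest sleep-deprived one, so that the groups met. Plod1 differed by 0.47 at 3 h (SE 0.07, adjusted p = 1.64e-06 from limma) and by 0.27 over all hours (SE 0.04, adjusted p = 2.44e-06). Plod3 differed by 0.13 over all hours (SE 0.03, adjusted p = 0.00106 from limma) and by 0.16 at 3 h (adjusted p = 0.0222). Plod2 differed by 0.27 at 3 h (SE 0.07, adjusted p = 0.00924 from limma), and its difference over all hours was 0.13 (SE 0.04, adjusted p = 0.0217). Relative to baseline, Plod2 was at 0.03 after 3 h of sleep deprivation (adjusted p = 0.897) and at −0.23 after 3 h of sleep (adjusted p = 0.265). The 3 h call for Plod2 was held in 65 of 78 fits with 1 mouse left out, and was lost most clearly without array 76 (adjusted p = 0.038). Plod2 passed over all hours once the 16 arrays were left out (0.17, adjusted p = 0.0028).

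Serpinh1, the collagen chaperone of the endoplasmic reticulum, had the largest difference of all members at 3 h, although P4ha2 was ahead of it without the 16 arrays (0.73 against 0.65). It ranged from 9.47 to 9.92 (median 9.75) in sleep-deprived and from 8.76 to 9.28 (median 9.10) in sleeping mice, with baseline mice from 9.00 to 9.90 (median 9.32). The sleep-deprived and sleeping groups did not overlap. The difference was 0.66 at 3 h (SE 0.09, adjusted p = 8.15e-07 from limma), 0.22 at 6 h, 0.16 at 9 h and 0.15 at 12 h. At the last 3 hours none passed (adjusted p = 0.389, 0.306 and 0.829). Over all hours it was 0.31 (SE 0.07, adjusted p = 0.00104), or 24.1% higher. After 3 h of sleep deprivation Serpinh1 was 0.39 above baseline (adjusted p = 0.00986), and after 9 h it was 0.35 below it (adjusted p = 0.0051). Sleeping mice were also below baseline at 9 and 12 h, by 0.50 and 0.47 (both called).

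**Figure D2:**
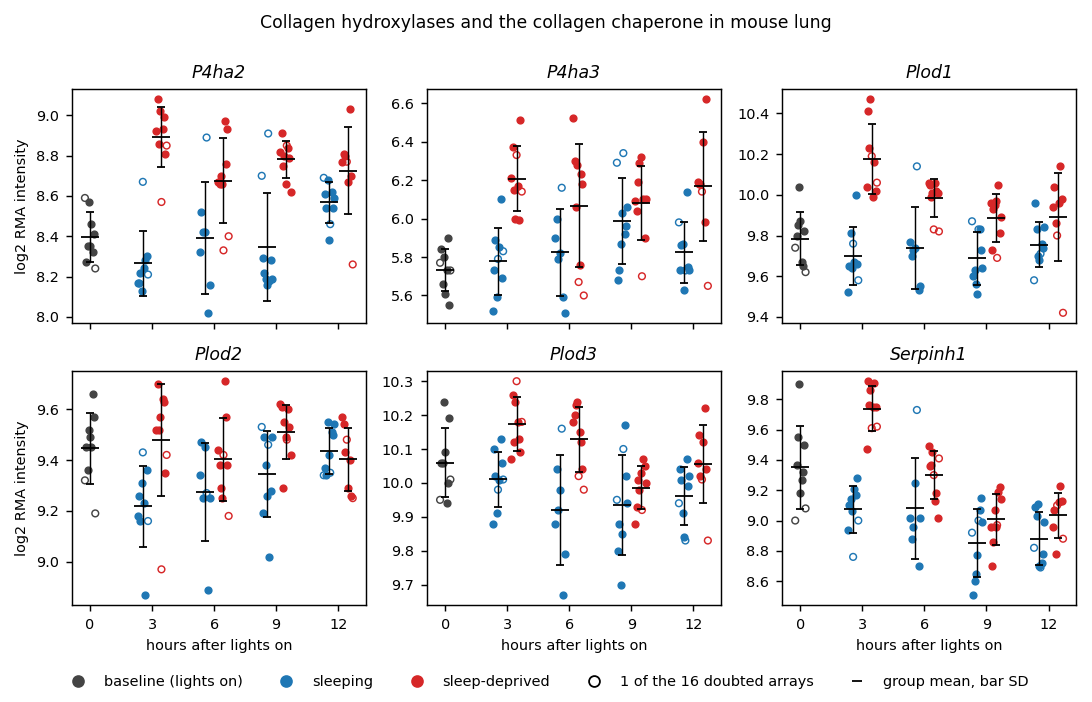
Log2 intensity of the 6 folding factors in every mouse by hours after lights on, for baseline, sleeping and sleep-deprived mice, with the group mean and SD. Open circles are the 16 arrays whose number or profile went against the label. At 3 h sleep-deprived mice lie above all sleeping mice for Serpinh1. For P4ha2 and Plod1 they are mostly higher, but the groups overlap or meet. The Serpinh1 values of both states decline afterwards.

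At 3 h, 7 members were higher in sleep-deprived mice and 0 lower, against 3.62% and 3.74% of all genes (7.36% together), and 16 members had an unadjusted p under 0.05 (30.3% of all genes). The 7 were P4ha2, Serpinh1, Plod1, Col20a1, P4ha3, Col4a1 and Plod2, of which all but Col4a1 were called without the 16 arrays (4.76% of all genes higher and 4.24% lower). At 6 h 0 members passed in limma, while 0.0319% of all genes were higher and 0.0531% lower (0.0850% together), and 12 had an unadjusted p under 0.05 (14.9% of all genes). Without the 16 arrays 6 members were higher and 0 lower at 6 h (2.58% and 1.34% of all genes), namely Eln, Lox, P4ha2, P4ha3, Plod1 and Plod3. At 9 h P4ha2 and Col4a2 were higher and Fbln5 was lower (0.797% and 2.08% of all genes, 2.88% together), whereas 5 were higher and 2 lower when those arrays were left out (3.20% and 3.93%). The 5 were P4ha2, Eln, Plod1, Col4a4 and Col20a1, and the 2 were Fbln5 and Col4a6. At 12 h 0 passed in limma (0.0478% of all genes higher, 0.0850% lower, 0.133% together), with 8 at an unadjusted p under 0.05 (9.49% of all genes), and P4ha3 was the single call without the 16 arrays (0.351% of all genes higher and 0.324% lower).

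Groups that did not overlap were Serpinh1 at 3 h (0.579% of all genes higher without overlap) and Eln at 12 h (0.112%). Leaving out the 16 arrays, P4ha2, Serpinh1 and Col20a1 were apart at 3 h (2.35%). At 6 h P4ha2 and Plod1 were then apart and higher (1.83%) and Col14a1 apart and lower (1.03%). At 9 h Eln and P4ha2 were apart and higher (1.53%), and at 12 h Eln was higher (0.802%) and Col12a1 lower (0.898%). The change of the state difference between hours was called for 0 members in limma (0.0691% of all genes), with 11 at an unadjusted p under 0.05 (19% of all genes). Serpinh1 had the smallest adjusted p of that test, 0.0523. P4ha2 passed it without the 16 arrays (adjusted p = 0.00144, 1.07% of all genes).

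Eln, elastin itself, was higher in sleep-deprived mice and fell during the light phase. Baseline mice ranged from 8.74 to 10.10 (median 9.94), and the lowest of them, array 36, lay 0.89 below the next and was 1 of the 16. Sleeping mice had medians of 9.54, 9.07, 9.06 and 8.95 at 3, 6, 9 and 12 h. Sleep-deprived mice had medians of 9.79, 9.50, 9.63 and 9.29. At 12 h sleeping mice ranged from 8.66 to 9.12 and sleep-deprived mice from 9.23 to 9.41. The groups were apart at 12 h and overlapped at the earlier hours.

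The state difference of Eln over all hours was 0.41 (SE 0.08, adjusted p = 8.25e-05 from limma), or 33.3% higher. By hour it was 0.31, 0.49, 0.50 and 0.35 at 3, 6, 9 and 12 h, none of which passed (adjusted p = 0.111, 0.0895, 0.0121 and 0.427). When the 16 arrays were left out it passed at 6 h (0.53, adjusted p = 0.000753) and 9 h (0.65, adjusted p = 5.98e-06). In serial order the arrays were cut into 4 runs where the sequence of conditions starts again, and no label names them as batches. Within these 4 runs of serial numbers the Eln difference was 0.55 (SE 0.11), 0.30 (SE 0.09), 0.40 (SE 0.18) and 0.35 (SE 0.16).

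Smooth muscle cells and fibroblasts make elastin. Of 6 smooth muscle markers 2 were higher in sleep-deprived mice (Acta2 by 0.16 and Cnn1 by 0.24), against 3.68% of all genes. The mean level of the list ranged from −0.34 to 0.48 in sleep-deprived and from −0.34 to 0.28 in sleeping mice. Of 8 fibroblast markers 2 were higher (Pdgfra by 0.16 and Fgf10 by 0.17) and Lum was lower, by 0.38 (3.68% and 4.35% of all genes). The 8 mice highest in Eln shared 0 with the 8 highest in smooth muscle markers. Those 8 Eln mice were baseline mice and sleep-deprived mice at 3, 6 and 9 h. The smooth muscle level had its highest group mean, 0.22, at 12 h of sleep deprivation, so that hour enters this overlap and it decides nothing. No smooth muscle marker fell over sleep, and Pdgfra and Fgf10 did, by 0.18 and 0.28 (3.41% of all genes fell). Their part in the Eln difference was not tested.

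Among the other elastic fibre proteins, Fbln5, the fibulin that guides elastin onto microfibrils, had the opposite sign. At 9 h it ranged from 9.86 to 10.34 (median 10.08) in sleep-deprived and from 9.96 to 10.73 (median 10.32) in sleeping mice. The groups overlapped between 9.96 and 10.34. The difference was −0.29 at 9 h (SE 0.07, adjusted p = 0.0057 from limma) and −0.14 over all hours (SE 0.04, adjusted p = 0.0138). The 9 h call held in 71 of 78 fits with 1 mouse left out and was weakest without array 29 (adjusted p = 0.025). Fbln5 also passed over all hours without the 16 arrays (−0.17, adjusted p = 0.00667). Emilin1, a glycoprotein at the interface of elastin and microfibrils, differed by 0.04 (SE 0.04) and Fbn2, a fibrillin, by −0.02 (SE 0.03), and neither passed.

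Lox, the founding lysyl oxidase, was near the threshold. At 3 h it ranged from 9.72 to 10.39 (median 9.84) in sleep-deprived mice and from 9.22 to 9.78 (median 9.48) in sleeping mice, overlapping narrowly. The difference was 0.40 at 3 h (SE 0.14, adjusted p = 0.0532 from limma) and 0.28 over all hours (SE 0.08, adjusted p = 0.0133). It was 0.38 and passed over all hours without the 16 arrays (adjusted p = 0.000526). Loxl1, the family member tied to elastic fibre upkeep, differed by 0.04 (SE 0.08) and Loxl2 by −0.02 (SE 0.04) over all hours.

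Of 6 basement membrane chains, Col4a1 and Col4a2 were higher and Col4a6 was lower (3.68% and 4.35% of all genes). Col4a1 and Col4a2 form the common collagen IV network and are neighbours transcribed from a shared promoter region. At 3 h Col4a1 ranged from 9.41 to 9.59 (median 9.49) in sleep-deprived mice and from 9.14 to 9.55 (median 9.24) in sleeping mice, where array 76 was the highest and lay 0.22 above the next. The remaining sleeping mice at 3 h were all below the sleep-deprived range. Col4a1 differed by 0.23 at 3 h (SE 0.06, adjusted p = 0.00646 from limma) and by 0.15 over all hours (SE 0.03, adjusted p = 0.000605). The 3 h call was lost without the 16 arrays (0.21, adjusted p = 0.0294), and it held in 69 of 78 fits with 1 mouse left out, being weakest without array 67 (adjusted p = 0.0146).

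Col4a2 differed by 0.12 over all hours (SE 0.03, adjusted p = 0.00792 from limma) and by 0.23 at 9 h (SE 0.06, adjusted p = 0.00943). Both calls lay just under the threshold, and each held in 43 fits, of 69 and of 78 respectively, with 1 mouse left out. Neither passed without the 16 arrays (0.11, adjusted p = 0.0273, and 0.19 at 9 h, adjusted p = 0.0434). Col4a6, a chain of the minor network, differed by −0.14 (SE 0.03, adjusted p = 0.00108), with estimates from −0.15 to −0.13 at the 4 hours. Without the 16 arrays its estimates ran from −0.21 at 6 h to −0.08 at 3 h, and the 9 h difference passed (−0.20, adjusted p = 0.00831). Col4a3, Col4a4 and Col4a5, chains of the networks of the alveolar and glomerular basement membrane, differed by 0.08, 0.09 and −0.04 over all hours and did not pass. Without the 16 arrays Col4a4 passed at 9 h (0.28, adjusted p = 0.00341 from limma).

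None of the 11 fibrillar collagens passed the test between states in limma (8.03% of all genes did), 2 had an unadjusted p under 0.05 (29.6% of all genes), and 10 of their 11 estimates were above 0. Col1a1 and Col1a2, the chains of collagen I, differed by 0.09 (SE 0.05, adjusted p = 0.266) and 0.05 (SE 0.04, adjusted p = 0.372). Col1a1 medians ran from 8.77 to 9.12 in sleeping and from 8.93 to 9.23 in sleep-deprived mice over the hours, a spread that overlapped throughout. Col3a1, the chain of collagen III, differed by 0.08 (SE 0.06, adjusted p = 0.406). Of 6 collagen VI chains 0 passed, against 8.03% of all genes, with Col6a1 at 0.05 (SE 0.04).

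Among 8 fibril-associated collagens, Col20a1 was higher and Col14a1 was lower (3.68% and 4.35% of all genes). Col20a1 ranged at 3 h from 7.50 to 7.92 (median 7.68) in sleep-deprived and from 6.86 to 7.66 (median 7.36) in sleeping mice. Array 76, a sleeping mouse, was the lowest and stood 0.45 below the next. Col20a1 differed by 0.38 at 3 h (SE 0.06, adjusted p = 1.8e-05 from limma) and by 0.19 over all hours (SE 0.03, adjusted p = 5.39e-05). A second probe set of this gene, with a mean of 6.35, differed by 0.25 and 0.09. Col14a1, which decorates collagen I fibrils, differed by −0.12 (SE 0.03, adjusted p = 0.00872), a call that held in 33 of 69 fits with 1 mouse left out. Of the transmembrane collagens, the multiplexins, the collagens VIII and X and the other collagens 0 passed, against 8.03% of all genes.

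Col10a1, Col17a1 and Col18a1 were high in single mice together with transcripts of other tissues. Col10a1, the collagen of growth cartilage, spanned 5.33 to 9.61 over all mice, and its 8 highest mice (8.19 to 9.61) shared 7 with the 8 highest in 10 cartilage markers. The cartilage level, the mean deviation of the markers, had a median of 0.80 in those mice and −0.12 in the rest. Col17a1, a collagen of epithelial anchorage, was highest in mice that shared 5 of 8 with the highest epidermis markers. Col18a1, the source of endostatin, was highest in arrays 79 and 80 after 6 h of sleep, and array 79 was highest in liver markers too. Its 8 highest mice shared 4 with the 8 highest in liver markers, whose level ran from −1.45 to 5.44 in them. Col2a1, the collagen II chain of cartilage, shared 2 of 8 with the cartilage markers. None of these 4 collagens passed between states, and the part of carried tissue in their values was not tested.

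Within each of the 4 runs of serial numbers, which hold different hours, the 11 members called between states had their direction over all mice in 10, 10, 11 and 11 cases. Those directions had been chosen on the same mice. P4ha2 differed by 0.29, 0.31, 0.35 and 0.63 in the runs, and Serpinh1 by 0.10, 0.21, 0.48 and 0.41.

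Over 12 h of sleep, elastin, Loxl1, Serpinh1 and several collagens fell. In a linear slope from baseline through 12 h of sleep (43 mice), 7 members fell and 1 rose at an adjusted p under 0.01 from limma, against 3.41% and 4.47% of all genes (7.87% together). Eln fell by 0.85 over 12 h (SE 0.13, adjusted p = 5.96e-06), Loxl1 by 0.77 (SE 0.11, adjusted p = 3.88e-06) and Serpinh1 by 0.47 (SE 0.10, adjusted p = 0.00086). The collagens that fell were Col3a1, by 0.45 (SE 0.09), Col13a1, by 0.40 (SE 0.06), Col15a1, by 0.37 (SE 0.10), and Col5a1, by 0.25 (SE 0.05). Col23a1, a transmembrane collagen, rose by 0.33 (SE 0.06, adjusted p = 2.73e-05). With the 16 arrays left out, 6 fell and 2 rose (4.31% and 4.57% of all genes).

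Loxl1 values ranged at baseline from 8.69 to 9.77 (median 9.65) and after 12 h of sleep from 8.53 to 9.24 (median 8.87). Array 36, the lowest at baseline and 1 of the 16, stood 0.80 below the next, and the remaining baseline mice were all above the mice after 12 h of sleep. Col3a1 ranged from 8.17 to 8.85 (median 8.58) at baseline and from 7.84 to 8.47 (median 8.08) after 12 h of sleep, with overlap. Col13a1, a transmembrane collagen of cell contacts, ranged from 6.96 to 7.74 (median 7.64) at baseline and from 7.02 to 7.36 (median 7.09) after 12 h of sleep. The baseline range reached below the later one only through array 36.

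The slope of Col15a1, a multiplexin of the basement membrane zone, was lost without the 16 arrays (−0.38, adjusted p = 0.0147), and in 9 of 43 fits with 1 mouse left out. The runs were cut by condition, so that the step from 6 h to 9 h of sleep falls between runs by definition. With the 4 runs as a block 0 members had a slope in limma, and 0% of all genes did. Changes on either side of that step pool the runs that hold those hours, without a term for run. Not all of the earlier-hour runs hold baseline mice. From baseline to 6 h of sleep the change was −0.72 for Eln (SE 0.18), −0.17 for Loxl1 (SE 0.13), −0.29 for Serpinh1 (SE 0.13), −0.09 for Col3a1 (SE 0.09) and −0.21 for Col13a1 (SE 0.08). From 9 to 12 h of sleep it was −0.15 for Eln (SE 0.09), −0.33 for Loxl1 (SE 0.13), 0.03 for Serpinh1 (SE 0.10), −0.26 for Col3a1 (SE 0.11) and −0.11 for Col13a1 (SE 0.05). Col23a1 changed by 0.03 (SE 0.07) and 0.05 (SE 0.05) in these spans, and by 0.22 from 6 to 9 h between them. Run and the later hours cannot be told apart for the step between.

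Sleep-deprived mice showed a fall in many of these genes over the same hours. In the slope from the same baseline mice through 12 h of sleep deprivation (44 mice), 9 members fell and 2 rose, against 6.28% and 5.84% of all genes (12.1% together). Loxl1 fell by 0.57 (SE 0.09, adjusted p = 2.52e-05 from limma), Serpinh1 by 0.55 (SE 0.11), Eln by 0.49 (SE 0.13), Col3a1 by 0.35 (SE 0.09), Col13a1 by 0.25 (SE 0.07) and Col5a1 by 0.19 (SE 0.05). Fbln5 and Col12a1, a fibril-associated collagen, each fell by 0.32 (SE 0.06), and Fbn2 fell by 0.28 (SE 0.06). Over sleep these 3 changed by −0.08, −0.08 and −0.18 and did not pass. Col23a1 rose by 0.26 (SE 0.06) and Col6a1 by 0.23 (SE 0.06). With the 16 arrays left out, 11 fell and 3 rose (7.32% and 6.65% of all genes). With the 4 runs as a block 0 members had a slope over sleep deprivation in limma (0% of all genes), and the estimates of Fbln5 and Col6a1 turned to 0.01 and −0.09. The baseline mice enter both slopes, so that the values are given side by side. Between the runs, from 6 to 9 h of sleep deprivation, Loxl1 changed by −0.38, Serpinh1 by −0.29 and Fbln5 by −0.29. Eln changed by 0.03, Col3a1 by −0.03 and Col13a1 by 0.05. In the same order the changes from baseline to 6 h were −0.11, −0.05, −0.08, −0.24, −0.15 and −0.15 (SE 0.05 to 0.16). From 9 to 12 h they were 0.03, 0.02, 0.13, −0.30, −0.13 and −0.19 (SE 0.06 to 0.11). Run and the later hours cannot be told apart for the step between.

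**Figure D3:**
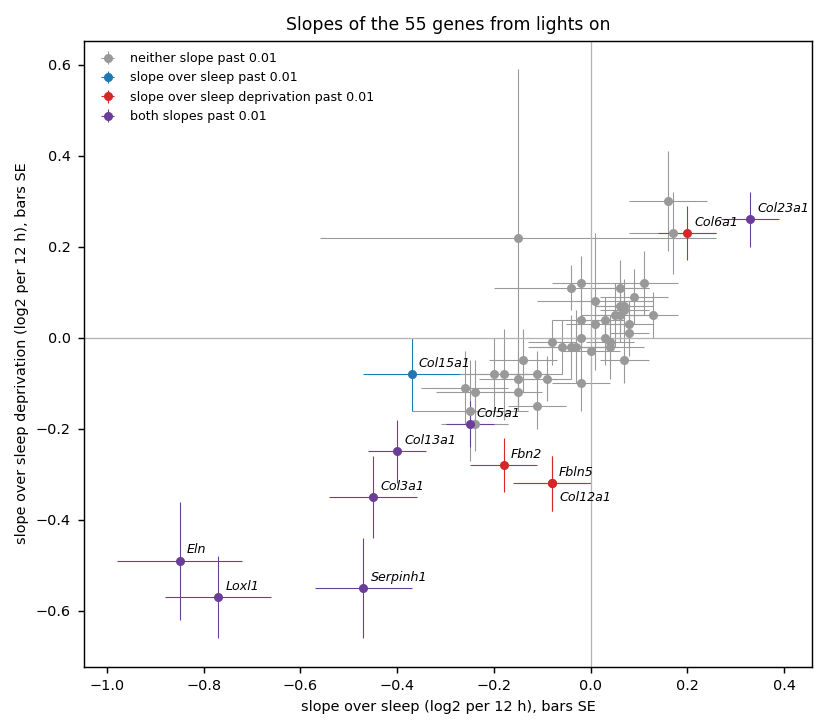
Slope over sleep (horizontal axis) and over sleep deprivation (vertical axis) for the 55 genes, in log2 change over 12 h with SE bars, coloured by which slope passed an adjusted p of 0.01. Both slopes share the 9 baseline mice. Eln, Loxl1 and Serpinh1 lie farthest to the lower left, and Col23a1 farthest to the right.

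When both slopes were fitted from 1 shared intercept over all 78 arrays, they differed for 6 members, 4 of them higher and 2 lower under sleep deprivation (1.78% and 2.90% of all genes, 4.68% together). The slope over sleep deprivation exceeded that over sleep by 0.55 for Eln (SE 0.10, adjusted p = 0.000196 from limma), 0.42 for P4ha2 (SE 0.08), 0.34 for P4ha3 (SE 0.08) and 0.28 for Plod1 (SE 0.07). It was lower by 0.24 for Fbln5 (−0.24, SE 0.05) and by 0.19 for Col4a6 (−0.19, SE 0.04). Serpinh1 was at 0.29 (adjusted p = 0.0344) and Loxl1 at 0.09 (adjusted p = 0.55). A shared intercept counts a constant offset between states as a difference of slopes. In the separate fits the slopes over sleep and over sleep deprivation were −0.03 and −0.02 for Plod1 and 0.17 and 0.23 for P4ha2. With an intercept for each state over 3 to 12 h, a fit added after the data were seen, 0 members differed in limma (0.0691% of all genes), with 10 at an unadjusted p under 0.05 (14.6% of all genes). The estimates then turned to −0.51 for P4ha2, −0.43 for Plod1 and −0.17 for P4ha3, and were 0.07 for Eln, −0.25 for Fbln5 and −0.02 for Col4a6.

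Strict sleep repressed genes, which differ between states and change over sleep in the opposite direction, were Eln and Serpinh1 among the members (0.351% of all genes), and 0 members were strict sleep enhanced (0.271%). Relative to baseline, 0 members were called in limma after 3 h of sleep (0.0106% of all genes higher and 0.00531% lower), where 10 had an unadjusted p under 0.05 (10.4% of all genes) and the member estimates ran from −0.29 to 0.20. After 3 h of sleep deprivation 4 were higher (0.999%) and 0 lower (0.877%), namely P4ha2, P4ha3, Plod1 and Serpinh1. After 6 h of sleep Eln was lower (0.154%) and 0 were higher (0.228%), and after 6 h of sleep deprivation 0 were called in limma (0.266% higher and 0.0691% lower), with 18 at an unadjusted p under 0.05 (11.1% of all genes). After 9 h of sleep 1 was higher (1.73%) and 3 were lower (1.79%), and after 9 h of sleep deprivation 6 were higher (6.80%) and 5 lower (8.69%). The 6 were Col20a1, Col23a1, Col4a2, Col6a1, P4ha2 and P4ha3, and the 5 were Col12a1, Fbln5, Fbn2, Loxl1 and Serpinh1. After 12 h of sleep 1 was higher (3.67%) and 7 were lower (2.67%), among them Col6a3, a collagen VI chain, by −0.36. After 12 h of sleep deprivation 1 was higher (2.62%) and 4 were lower (2.77%). All these comparisons share the baseline mice. The baseline mice lie in another run of serial numbers than all mice at 9 and 12 h, so that run and hour cannot be told apart in the comparisons of those hours with baseline. For unequal spread across the groups of baseline and sleeping mice, 0 members passed both tests (0.143% of all genes), and Col18a1 passed Bartlett's test alone.

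**Figure D4:**
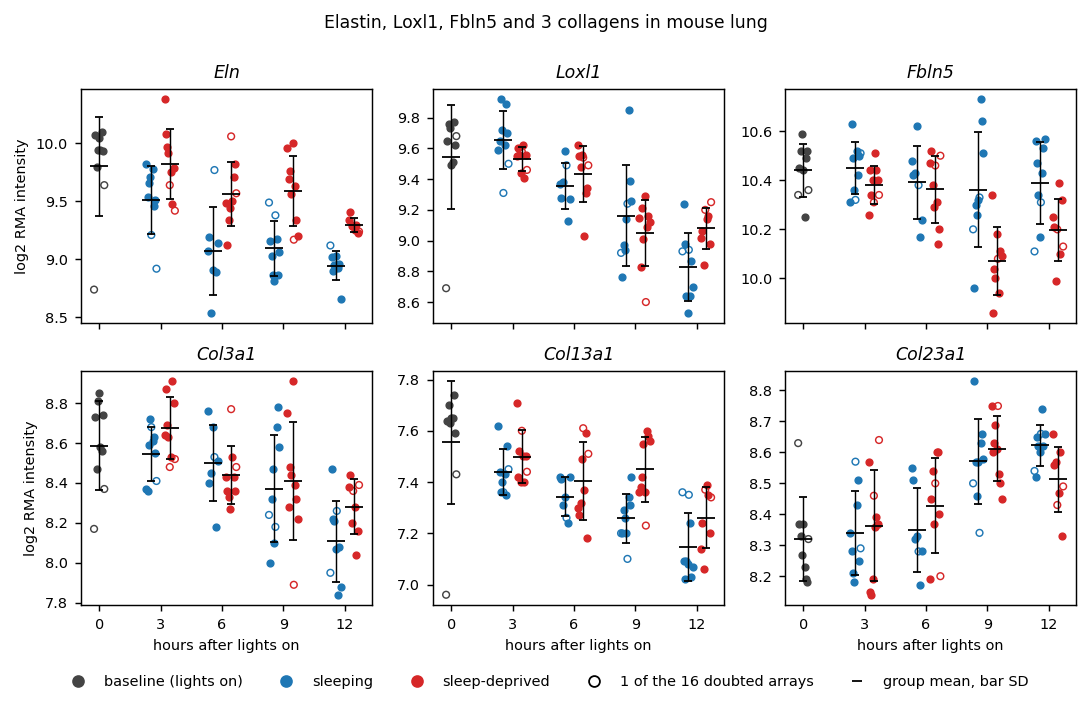
Log2 intensity of Eln, Loxl1, Fbln5, Col3a1, Col13a1 and Col23a1 in every mouse by hours after lights on, with group means and SD, open circles being the 16 arrays whose number or profile went against the label. Eln falls in both states and stays higher in sleep-deprived mice, with separate ranges at 12 h, while Loxl1 and Col3a1 decline in both states and Col23a1 is higher from 9 h on.

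Other genes of the same pathways were counted in the same way. Of 27 further genes for collagen folding, export and trimming, 2 were higher between states and 1 lower (3.68% and 4.35% of all genes). P4ha1, the main catalytic subunit of prolyl 4-hydroxylase, was 0.37 higher (SE 0.06) and 0.76 higher at 3 h (SE 0.08, adjusted p = 4.09e-10 from limma). Fkbp14, a prolyl isomerase of the endoplasmic reticulum, was 0.46 higher (SE 0.09) and rose over sleep by 0.85 (SE 0.13), and Colgalt1, a collagen galactosyltransferase, was 0.08 lower. Creb3l1, a transcription factor for collagen secretion, fell over sleep by 0.87 (SE 0.11).

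Of 25 matrix proteases and inhibitors 4 were higher and 0 lower (3.68% and 4.35% of all genes). Among the 4 were Mmp3, a stromelysin, by 0.54 (SE 0.06), Mmp19 by 0.25 and Adamts9 by 0.29. Over sleep 5 of the 25 fell (3.41% of all genes), led by Mmp9, a gelatinase (adjusted p = 5.48e-06 from limma), Adamts4, by 0.59, and Adamts5, by 0.55. Of 16 further elastic fibre genes only Tnxb, a tenascin, was called between states (−0.18, SE 0.04), against 8.03% of all genes.

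Of 16 TGF-beta pathway genes 0 were higher and 3 lower in sleep-deprived mice (3.68% and 4.35% of all genes). The 3 were Tgfb1 at −0.16, Tgfb2 at −0.23 and Tgfbi at −0.16. Over sleep 3 of the 16 rose (4.47% of all genes) and 4 fell (3.41%), with Ccn2 (connective tissue growth factor) at 0.66 and Smad3 at −0.33. Of 26 other matrix proteins 2 were higher, Vcan (versican) by 0.35 and Lamb1 (a laminin chain) by 0.13 (3.68% of all genes). Lum and Podn were lower (4.35%). Tnc (tenascin C) fell over sleep by 0.93 (SE 0.12). Of 9 collagen receptors only Lair1 was called between states (−0.21), against 8.03% of all genes. Only Mrc2 fell over sleep, by 0.40 (SE 0.07), against 3.41%.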

How the data were processed

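Lung total RNA was hybridised to Affymetrix Mouse Gene 1.0 ST arrays, 1 per mouse. The authors normalised all lung arrays together by RMA with R/oligo, and the deposited values are log2 intensities whose decimal point was missing. It was restored here after the leading digit, or after the next where that digit is 1, giving 2.27 to 13.85 and array medians of 6.45 to 6.78. The number of arrays limits the precision. The platform annotation gave 21218 of 35556 probe sets 1 symbol, 1881 several and 12457 none.

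State, hour, slope and baseline contrasts were fitted on all probe sets in limma 3.58.1 (R 4.3.3) with Benjamini-Hochberg adjustment and a threshold of 0.01, after the study's design. Limma's moderated test replaced its modified F statistic. The main slopes were fitted for each state apart, whereas the study's slope model had a common intercept, used here as an alternative. Unequal spread needed Bartlett's adjusted p and Brown-Forsythe p under 0.01. Fits were tested on simulated data. Alternatives were hour as a factor, the 4 runs of serial numbers as a block, an intensity floor of 6, array weights, trended robust variances, any probe set, a common intercept, an intercept for each state (added after the data were seen), and leaving out 16 arrays or each mouse.

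The members and gene lists were chosen with earlier results of these data known. Genes named were those past the threshold (up to 8 per direction and test, 4 per hour), a fixed set of main collagens and enzymes, the extremes of mean intensity, and up to 3 per direction of each other list. Whether mice of a group came from separate litters is not given in the sources used here.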

Additional observations from a re-analysis of the deposited data

Results flagged for a closer look

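In 25 of 225 groups of mice (9 groups for each of 25 members tested) the highest or lowest mouse stood apart from the rest by Dixon's criterion, which chance meets in about 1 in 20 groups, or 11.2 here. The 25 marked values came from 16 arrays. Of these values 12, from 7 arrays, belonged to the 16 arrays that went against their label.

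In baseline mice, array 36 stood apart for Col10a1 (9.61), Col13a1 (6.96), Col23a1 (8.63), Eln (8.74) and Loxl1 (8.69), array 39 for Col17a1 (6.98) and array 40 for Col4a2 (9.61). After 3 h of sleep, array 76 stood apart for Col17a1 (6.86), Col20a1 (6.86), Col4a1 (9.55) and Plod2 (8.87), and array 61 for P4ha2 (8.67). After 6 h of sleep, array 79 stood apart for Col18a1 (9.34) and Plod2 (8.89), and array 66 for Plod1 (10.14). After 9 h of sleep it was array 11 for Col18a1 (6.84), array 29 for Col20a1 (7.11) and array 10 for Col4a6 (6.23), and after 12 h array 35 for Eln (8.66).

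In sleep-deprived mice at 3 h, array 68 stood apart for Col10a1 (8.48), array 67 for Lox (10.39) and array 46 for Plod2 (8.97). At 6 h array 74 did so for Col10a1 (7.94), and at 12 h array 81 for P4ha2 (8.26) and Plod1 (9.42).

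The slopes over sleep deprivation and over sleep differed for 6 members by a test of the difference itself from 1 shared intercept, which counts a constant offset between states as a difference of slopes. The difference was 0.55 for Eln, 0.42 for P4ha2, 0.34 for P4ha3, 0.28 for Plod1, −0.24 for Fbln5 and −0.19 for Col4a6, in log2 change over 12 h. With an intercept for each state 0 of the 6 passed in limma.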

How the results depend on the processing

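No paired analysis was possible because the labels give no replicate numbers. Between states, the counts of 9 higher and 2 lower members became 10 and 4 with array weights (5.15% and 7.40% of all genes). With array weights 7 were higher at 9 h (2.09% of all genes), 1 at 12 h (0.616%), and over sleep 2 rose (7.88%) and 12 fell (6.56%). With the intensity floor 4 were higher at 9 h (1.44%) and 2 rose over sleep (7.30%). Without the 16 arrays 6 were higher at 6 h, 5 higher and 2 lower at 9 h and 1 higher at 12 h, 2 rose over sleep, and 1 changed its state difference over hours. With a common intercept 2 rose and 13 fell over sleep (7.49% and 6.26%). With an intercept for each state, a fit added after the data were seen, the 4 higher and 2 lower slope differences became 0 and 0, and those of P4ha2, P4ha3 and Plod1 turned to −0.5080, −0.1720 and −0.4341. With the 4 runs as a block 0 rose and 0 fell over sleep or over sleep deprivation in limma, and 0% of all genes passed for either slope. At an unadjusted p under 0.05 there were 9 and 15 members (9.91% and 11.7% of all genes). The slopes over sleep deprivation of Col6a1 and Fbln5 turned to −0.0861 and 0.0126. That block also takes up the step from 6 h to 9 h. Trended robust variances kept every named member on its side of the threshold.
With 1 mouse left out, between states 8 to 10 members were higher and 1 to 3 lower, 5 to 7 were higher at 3 h, and 0 to 1 were higher at 6 h (1 without array 66 alone). At 9 h 1 to 4 were higher and 0 to 1 lower, and over sleep 1 to 2 rose and 6 to 7 fell.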
